A study of Homo sapiens with 6 samples.

Results

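The human collagen genes were followed in NTERA2/D1 cells in which VAMP7 had been lowered with small interfering RNA (siRNA). A gene was counted as a collagen where its platform symbol had the form COL, a type number, A and a chain number. Of 44 such genes listed by structural class, 43 had a probe set that named them and no other gene, out of 19775 genes in all. COL17A1 was not analysed here. The 43 genes had 112 probe sets, out of 54613 that were no array control, and 8 of the genes had 1 probe set while 35 had several.

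Total RNA was measured on 6 one-colour 3' expression arrays, 3 from cells given Vamp7 siRNA (knockdown) and 3 from cells given a scrambled siRNA with no intended target (control). NTERA2/D1 is an established human testicular teratocarcinoma line, and cells of both groups were grown in phenol red-free medium with serum, transfected 24 h after plating and harvested after 72 h of transfection. The titles number 3 biological replicates in each group, but they do not say whether these were separate cultures, so each p-value reflects the scatter among these arrays, and that scatter could be technical only. The siRNA lowers the transcript for a time and deletes nothing. Each array averages over all cells harvested, so fewer cells of a type and less RNA per cell cannot be told apart. The comparison asks which transcripts differ when VAMP7 is lowered.

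VAMP7, a vesicle SNARE protein of late endosomes, lysosomes and secretory vesicles, was the check of the labels. It read 137, 175 and 149 intensity units on the knockdown arrays, against 2487, 2617 and 2741 on the control arrays. VAMP7 therefore fell by 3.71 on the log2 scale (SE 0.11, adjusted p = 8.65e-05 in limma), and 5.87% of the control intensity remained. Differences here and below are knockdown minus control on the log2(intensity + 50) scale, with Benjamini-Hochberg adjusted p-values over all genes, or over all probe sets where a second probe set of a gene is described. The offset of 50 keeps dim probe sets from giving large differences and makes the difference of dim genes smaller than it is. A gene is called bright here where its mean level was at or above that of the median gene, 8.09 on this log2 scale, which corresponds to an intensity of 222. A further probe set of a gene is called bright at or above the median probe set, an intensity of 58.5.

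The cell line was checked against its markers. Of 12 markers of embryonal carcinoma and pluripotent cells, 10 were measured by a probe set that named 1 gene, and 9 of them were bright. Their summed intensity ran from 87711 to 99970 on the knockdown arrays and from 79847 to 100406 on the control arrays, so the groups overlapped. Of the 10, 6 lay above 0 and 4 below, and NANOG, named after its value had been seen, was lower without overlap (-0.28, unadjusted p = 0.0443, limma adjusted p = 0.742). Median intensity over all probe sets ran from 64.1 to 67.4 on the knockdown arrays and from 58.7 to 64.9 on the control arrays. Knockdown replicate 1 stood apart, with a loading of 0.90 on a first principal component that took 29.5% of the variance. Its bioC hybridisation spike read 3463, against at most 2648 on the other arrays, while the 3'/5' ratio of actin, a sign of RNA quality, ran from 2.31 to 2.73 in knockdown and from 2.27 to 3.43 in control.

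Collagens are trimers of chains wound into a triple helix, made in the endoplasmic reticulum, where prolines and lysines are hydroxylated, and exported in unusually large carriers. Fibrillar collagens (types I, II, III, V, XI, XXIV and XXVII) form the tensile fibrils of connective tissue and cartilage. Basement membrane collagen of type IV forms the sheet-like network under epithelia, and embryonal carcinoma cells are known to make basement membrane proteins. Fibril-associated collagens with interrupted triple helices (FACIT collagens) bind to the surface of fibrils. The others include beaded filaments (type VI), anchoring fibrils (type VII), transmembrane collagens, short-chain networks and multiplexins, which carry sugar chains and can release anti-angiogenic fragments.

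Several collagen genes share a promoter or lie next to one another. The promoter windows of 3 collagen genes are shown, for the reasons given below. Windows of 250 bases upstream of a start site, from RefSeq on GRCh38.p14, were found for 31 of the 43 genes, in 43 windows, and COL2A1 had none. COL27A1 is shown because all its bright probe sets read higher in the knockdown. COL4A1 and COL4A5 are shown because each faces a second type IV gene. The start of COL4A1 lies 127 bases from that of COL4A2 on the opposite strand, and the starts of COL4A6 lie 380 and 1416 bases from that of COL4A5. The windows are chr9:114155287-114155536 on the plus strand (COL27A1), chr13:110307158-110307407 on the minus strand (COL4A1) and chrX:108439588-108439837 on the plus strand (COL4A5), each written 5′ to 3′ along its gene. Capitals mark a GC box (GGGCGG) or a CCAAT box (CCAAT) on either strand.
COL27A1: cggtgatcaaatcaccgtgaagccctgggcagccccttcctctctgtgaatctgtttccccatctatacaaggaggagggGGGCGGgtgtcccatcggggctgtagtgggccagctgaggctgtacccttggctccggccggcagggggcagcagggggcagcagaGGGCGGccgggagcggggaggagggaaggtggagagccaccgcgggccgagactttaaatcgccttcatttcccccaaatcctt
COL4A1: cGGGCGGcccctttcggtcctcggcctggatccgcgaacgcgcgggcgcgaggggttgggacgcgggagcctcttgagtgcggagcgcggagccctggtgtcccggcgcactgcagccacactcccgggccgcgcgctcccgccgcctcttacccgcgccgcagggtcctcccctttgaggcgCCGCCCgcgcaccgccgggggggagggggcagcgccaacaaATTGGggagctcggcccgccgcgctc
COL4A5: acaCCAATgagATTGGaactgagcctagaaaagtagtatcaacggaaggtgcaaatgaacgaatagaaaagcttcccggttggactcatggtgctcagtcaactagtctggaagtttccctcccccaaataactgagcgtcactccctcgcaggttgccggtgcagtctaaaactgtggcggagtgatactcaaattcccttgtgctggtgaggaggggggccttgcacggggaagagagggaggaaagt
COL27A1 held 2 GC boxes, COL4A1 held 2 GC boxes and 1 CCAAT box, and COL4A5 held 2 CCAAT boxes. Over both strands, a GC box stood in 55.8% of the 43 collagen windows and in 42.6% of all 35116 windows. Some collagen windows overlap, such as those of COL5A1 with each other and that of COL4A1 with that of COL4A2. The same bases can thus count more than once in these shares. CCAAT stood in 11 of the collagen windows (25.6%) and in 32.0% of all windows, and the TATA box TATAAA in 16.3% of collagen windows and 10.7% of all windows. These are descriptions of letters in a window and do not show that a factor binds there.

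No collagen gene passed the adjusted threshold, 0 of 43 in limma, where 0.00506% of all genes did, which was VAMP7 alone. At an unadjusted p under 0.05, 5 collagens were higher and 0 were lower in the knockdown, against 3.63% and 3.03% of all genes. The 5 were COL27A1, COL6A2, COL7A1, COL9A2 and COL13A1. All 3 knockdown arrays lay above all 3 control arrays for 7 collagens, those 5 together with COL2A1 and COL6A1, and below them for 0 collagens. The same held for 6.68% and 6.29% of all genes.

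The collagens lay mostly above 0. Of the 43, 32 had a difference above 0 (74.4%), where 50.8% of all genes had one. The median difference was 0.11 over the collagens and 0.00 over all genes. Among the 19 bright collagens, 17 lay above 0 (89.5%), where 50.1% of all bright genes did, and their median was 0.17. Of these 19, 4 had an unadjusted p under 0.05 and were higher, against 2.89% of bright genes, and 6 had non-overlapping groups with the knockdown above, against 7.55% of bright genes. The other 24 collagens were dim, with 15 above 0, 9 below and a median of 0.04.

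**Figure D1:**
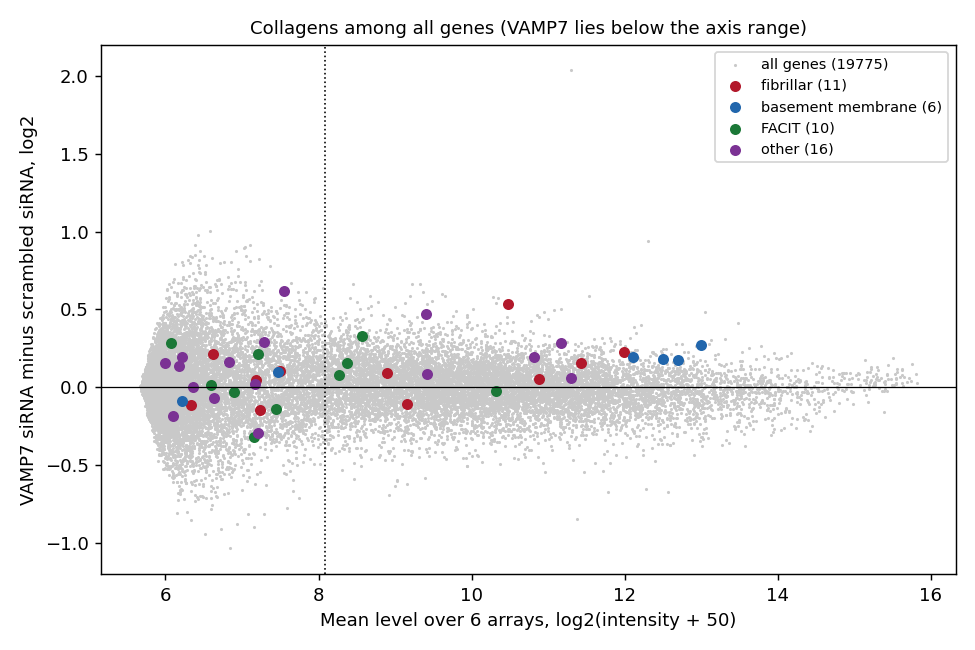
Log2 difference (knockdown minus control, vertical axis) against mean log2 level over the 6 arrays (horizontal axis) for all 19775 genes in grey, with the collagens coloured by class and the median gene's level as a dotted line. VAMP7, at -3.71, lies below the axis range, and the bright collagens, right of the line, lie mostly above 0, up to 0.53 for COL27A1.

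Each structural class had more members above 0 than below. Among fibrillar collagens, 8 of 11 lay above 0 with a median of 0.09, and among basement membrane collagens 5 of 6 did, with a median of 0.18. Of FACIT collagens, 6 of 10 lay above 0 with a median of 0.05. Of the others, 13 of 16 did, with a median of 0.15. Beaded filament collagens lay above 0 in 5 of 5 genes and transmembrane collagens in 3 of 3. Only 1 beaded filament gene and 1 transmembrane gene were bright. Network collagens lay above 0 in 2 of 3 genes, multiplexins in 1 of 2 and unclassed ones in 1 of 2, and COL7A1 of the anchoring fibrils did too. No test of a difference between classes was made.

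**Figure D2:**
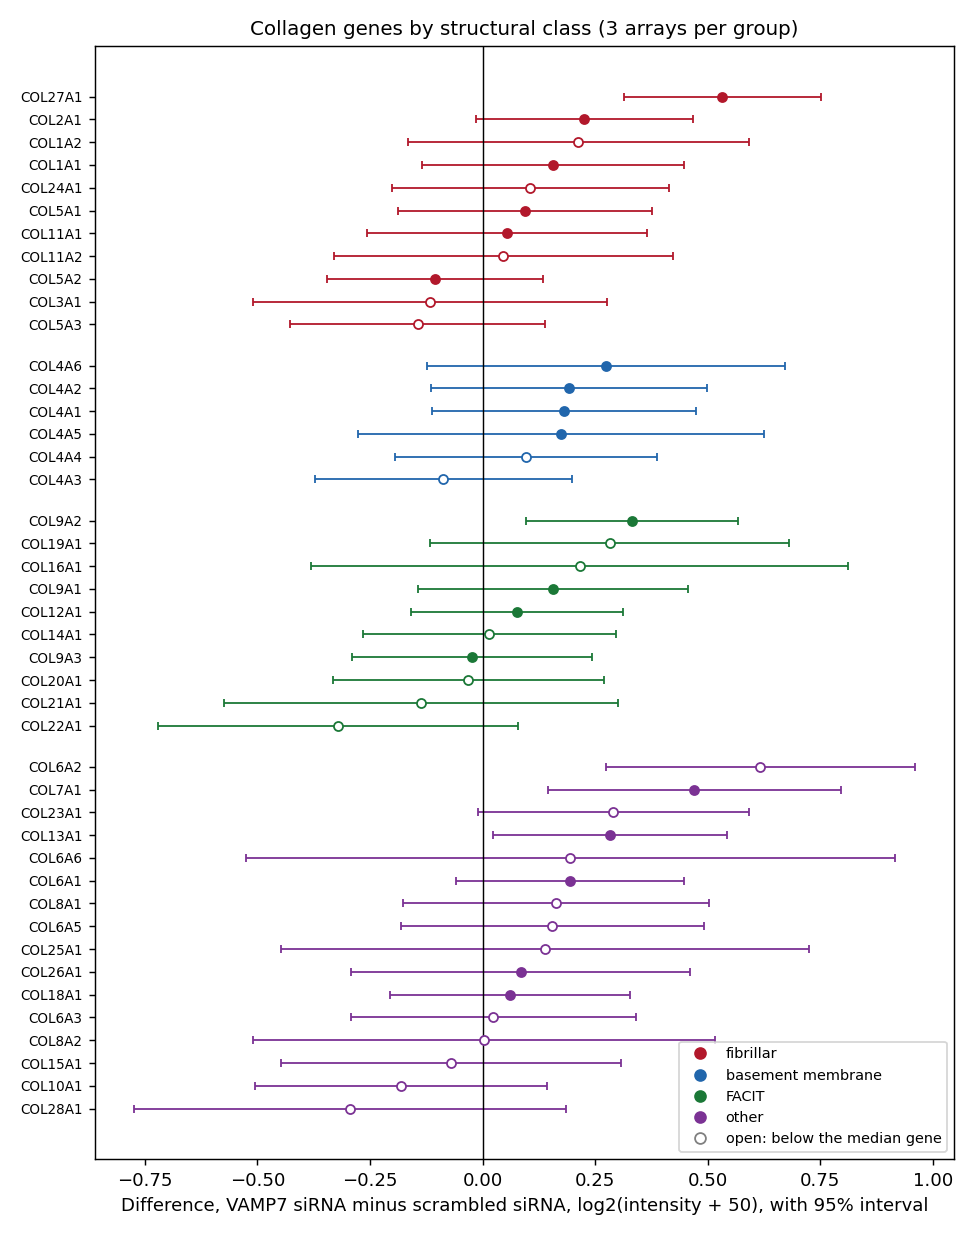
Log2 difference of each measured collagen gene (knockdown minus control, horizontal axis) with its 95% confidence interval, arranged and coloured by structural class. Filled points are bright genes and open points dim ones, and 17 of the 19 filled points lie right of 0.

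The shift was unequal across arrays. The median deviation of the 19 bright collagens from their own mean over the 6 arrays was 0.22, 0.03 and 0.03 on the knockdown arrays, and -0.14, -0.07 and -0.02 on the control arrays. The same median over all bright genes stayed between -0.01 and 0.02 on every array. Knockdown replicate 1 was the highest of the 6 arrays for 11 of the 19 bright collagens and the lowest for 0, and control replicate 1 was the lowest for 8. Without knockdown replicate 1, 13 of the 19 lay above 0 and the median was 0.08. The fibrillar class then had 3 of 6 bright genes above 0, basement membrane 4 of 4, FACIT 3 of 4 and the others 3 of 5. The part of that array in the collagen values was not tested beyond this.

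**Figure D3:**
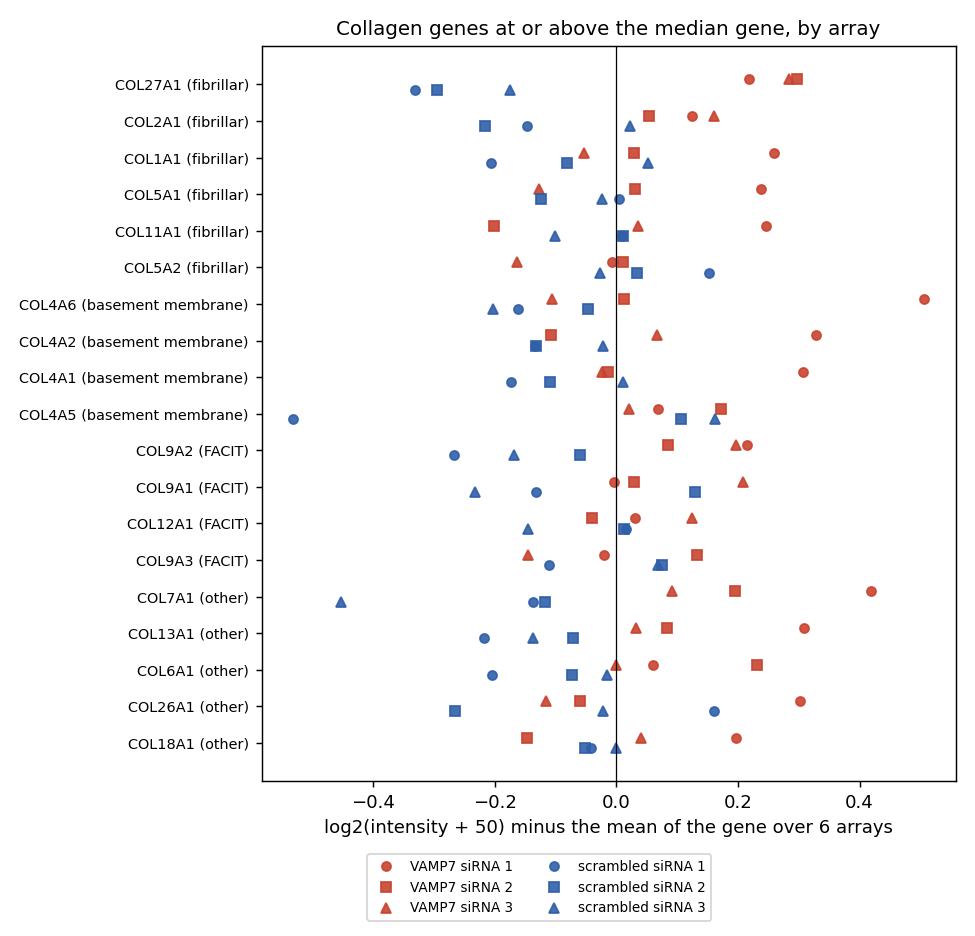
Deviation of each array from the gene's own mean over the 6 arrays, on the log2(intensity + 50) scale (horizontal axis), for the 19 bright collagens in rows, with knockdown arrays in red, control arrays in blue and the replicate as the shape. The red circle, knockdown replicate 1, is the rightmost point in 11 rows, and the blue circle, control replicate 1, the leftmost in 8.

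COL27A1, a fibrillar collagen of developing cartilage, had the smallest unadjusted p of all collagens. The probe set that stood for it, 225293_at, read 1601, 1695 and 1678 on the knockdown arrays, against 1079, 1108 and 1207 on the control arrays. All knockdown arrays lay above all control arrays. The means were 1658 ± 50 in knockdown and 1132 ± 67.2 in control (SD, n = 3 each), a ratio of 1.47. The difference was 0.53 (SE 0.09, 95% confidence interval 0.31 to 0.75, limma adjusted p = 0.461, unadjusted p = 0.000685). It stayed between 0.50 and 0.58 when each array was left out in turn.

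The other COL27A1 probe sets gave the same sign. Probe set 225288_at read 977, 909 and 972 in knockdown and 742, 677 and 690.2 in control, without overlap, with a difference of 0.41 (SE 0.10, limma adjusted p = 0.608). Probe set 225292_at read 369.9, 302 and 329 in knockdown and 270.2, 133 and 192 in control, also without overlap, with a difference of 0.66 (SE 0.21, limma adjusted p = 0.675). Control replicate 2 was the lowest of these, and without it the difference of 225292_at was 0.46. The remaining 2 probe sets were dim and their groups overlapped. Probe set 1564008_at read 31.2, 1.60 and 32.2 in knockdown and 5.38, 18.1 and 4.18 in control, with a difference of 0.25 (limma adjusted p = 0.875). Probe set 230603_at read 22.8, 5.56 and 7.62 in knockdown and 5.57, 2.16 and 3.15 in control, with a difference of 0.20 (limma adjusted p = 0.833). All 5 probe sets of COL27A1 thus lay above 0, and no adjusted p passed the threshold.

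**Figure D4:**
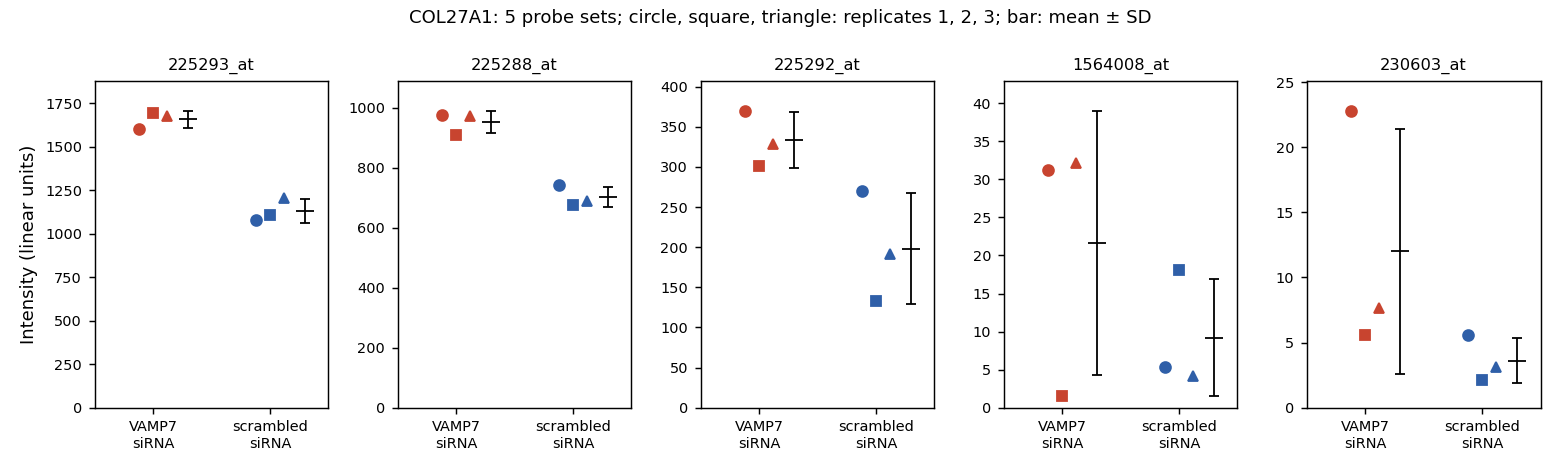
Intensity on each array (vertical axis) of the COL27A1 probe sets, with knockdown arrays left of control arrays a shape per replicate and a bar for the mean and SD of each group (n = 3). In 225293_at, 225288_at and 225292_at all knockdown points lie above all control points, and the 2 dim probe sets overlap.

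COL2A1, the main collagen of cartilage fibrils, also read higher without overlap on both its bright probe sets. The first read 4397, 4185 and 4509 in knockdown and 3636, 3462 and 4092 in control, with a difference of 0.23 (SE 0.10, limma adjusted p = 0.754). The second, 217404_s_at, read 1096, 1033 and 1147 in knockdown and 775, 736 and 641 in control, with a difference of 0.58 (SE 0.11, unadjusted p = 0.00133, limma adjusted p = 0.557). The sizes of the differences on the 2 probe sets thus differ for this gene.

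COL1A1, the main chain of type I collagen of skin and bone, read 3248, 2761 and 2605 in knockdown and 2340.4, 2556 and 2808 in control. These overlapped, with a difference of 0.16 (SE 0.12, limma adjusted p = 0.851). Its other bright probe sets, with mean intensities of 354, 229 and 114 against 2720 for the first, differed by 0.22, 0.29 and 0.26. Of these only 217430_x_at, that of 0.29, had non-overlapping groups (limma adjusted p = 0.72). Its dim probe set 202312_s_at read 41.0 ± 20.3 in knockdown and 5.12 ± 2.08 in control (SD, n = 3 each) without overlap, a difference of 0.70 (unadjusted p = 0.00571, limma adjusted p = 0.63), and is named after its values had been seen. Without knockdown replicate 1 the difference of the first COL1A1 probe set was 0.07. COL1A2, which encodes the partner chain, and COL3A1, of type III collagen, were dim, with differences of 0.21 and -0.12. COL5A1 and COL11A1, of fibrils in which types V and XI set fibril diameter, differed by 0.09 and 0.05. The other COL11A1 probe sets differed by 0.07 and -0.27, with no shared sign. COL5A2 read 517, 525 and 459 in knockdown and 583, 533 and 509.9 in control, the only bright fibrillar gene below 0, at -0.11 (SE 0.10, limma adjusted p = 0.872). Its groups overlapped.

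Type IV collagen, the scaffold of basement membranes, had 4 bright genes, COL4A1, COL4A2, COL4A5 and COL4A6, and all lay above 0. COL4A1 read 7152, 5713 and 5677 in knockdown and 5109, 5346 and 5811 in control, with a difference of 0.18 (SE 0.12, limma adjusted p = 0.831). COL4A2, its partner at the shared promoter, read 5518, 4071 and 4597 in knockdown and 3995, 3997 and 4321 in control, with a difference of 0.19 (SE 0.13, limma adjusted p = 0.829). In both genes knockdown replicate 1 was the highest of the 6 arrays and the groups overlapped. Without it the differences were 0.07 for COL4A1 and 0.08 for COL4A2.

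The second COL4A1 probe set, 211981_at, read 455, 342 and 412 in knockdown and 319.5, 314 and 307 in control, without overlap, with a difference of 0.31 (SE 0.12, limma adjusted p = 0.744). The second COL4A2 probe set differed by 0.32 (SE 0.22), or by 0.05 without control replicate 3, and its groups overlapped. COL4A5 and COL4A6 encode chains that form a network with each other in some basement membranes. COL4A6 read 11558, 8194 and 7544 in knockdown and 7257, 7863 and 7051 in control, with a difference of 0.27 (SE 0.17, limma adjusted p = 0.812) that was 0.09 without knockdown replicate 1. Its other probe sets differed by 0.34 and -0.14. COL4A5 read 6908, 7419.6 and 6681 in knockdown and 4539, 7087 and 7374 in control, with a difference of 0.17 (SE 0.19, limma adjusted p = 0.886). Its groups overlapped, control replicate 1 was far below the rest, and without that array the difference was -0.05. The COL4A3 and COL4A4 chains, known from the kidney filter, were dim and differed by -0.09 and 0.10.

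**Figure D5:**
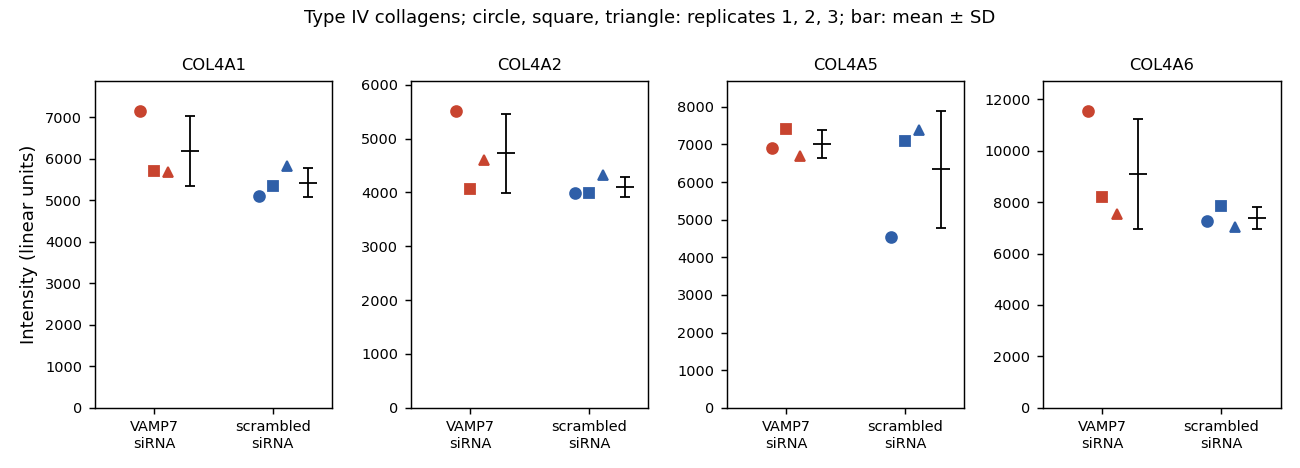
Intensity on each array (vertical axis) of the bright type IV collagen genes, with knockdown arrays left of control arrays a shape per replicate and a bar for the mean and SD of each group (n = 3). Knockdown replicate 1, the circle, is the highest array for COL4A1, COL4A2 and COL4A6, and control replicate 1 is the lowest for COL4A5.

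Of the FACIT collagens, COL9A2 had the smallest unadjusted p. Type IX collagen coats the type II fibrils of cartilage. COL9A2 read 392, 354 and 387 in knockdown and 266, 315 and 289 in control, with no overlap and a difference of 0.33 (SE 0.10, 95% confidence interval 0.10 to 0.57, unadjusted p = 0.0127, limma adjusted p = 0.648). The second COL9A2 probe set was dim and overlapped between groups, with a difference of -0.02 (SE 0.34). The other type IX chains overlapped between groups. COL9A1 differed by 0.16 (limma adjusted p = 0.855), and COL9A3, which read 1209, 1349.8 and 1105 in knockdown and 1134, 1295 and 1290.2 in control, by -0.02 (SE 0.11, limma adjusted p = 0.981). COL12A1, which binds type I fibrils, differed by 0.08 (limma adjusted p = 0.903). COL22A1, of tissue junctions such as that of muscle and tendon, was dim and had the lowest difference among the probe sets that stood for a gene, -0.32 (SE 0.17, limma adjusted p = 0.787). It read 68.7, 61.2 and 108 in knockdown and 86.5, 117 and 129 in control, with overlap, and its second probe set differed by 0.08.

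Among the other collagens, COL6A2, a chain of the type VI beaded filaments around cells, had the largest difference among the probe sets that stood for a gene. It was dim, reading 219, 149 and 182 in knockdown and 121, 95.6 and 87.3 in control, without overlap. The means were 183 ± 35.0 and 101 ± 17.7 (SD, n = 3 each), with a difference of 0.62 (SE 0.15, 95% confidence interval 0.27 to 0.96, unadjusted p = 0.00383, limma adjusted p = 0.559). Its second, dimmer probe set differed by 0.01. COL6A1, the partner chain, read 1829.7, 2067 and 1751 in knockdown and 1515, 1663 and 1733 in control, without overlap, with a difference of 0.19 (SE 0.11, limma adjusted p = 0.795). No other of its 8 probe sets separated the groups, and the 8 ran from -0.19 to 0.35. Its second bright probe set, 212091_s_at, differed by 0.24 (SE 0.19).

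COL7A1, of the anchoring fibrils that hold skin to its basement membrane, read 855, 726 and 672 in knockdown and 566, 574 and 445 in control, without overlap. Its difference was 0.47 (SE 0.14, unadjusted p = 0.0112, limma adjusted p = 0.64). A second bright probe set overlapped between groups, reading 585, 613 and 376 in knockdown and 561, 418 and 573 in control, a difference of 0.01 (SE 0.20, limma adjusted p = 0.998). COL13A1, a transmembrane collagen found at cell junctions and neuromuscular synapses, read 2794, 2386 and 2300.5 in knockdown and 1927, 2137 and 2041 in control, without overlap. Its difference was 0.28 (SE 0.11, unadjusted p = 0.0364, limma adjusted p = 0.73), while its other bright probe sets differed by 0.13 and 0.07. COL18A1, a multiplexin whose fragment endostatin limits vessel growth, differed by 0.06 (limma adjusted p = 0.939) and by 0.14 on a second probe set. COL26A1, which is expressed in testis and ovary in the mouse, differed by 0.08 (limma adjusted p = 0.94).

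Probe sets of 1 gene did not always share a sign. In the probe set counts that follow, every probe set is called bright at or above the median probe set, an intensity of 58.5. This holds also for the probe set that stood for a gene. Some that were dim by the gene cut-off, such as those standing for COL6A2 and COL22A1, are therefore bright in these counts. Of the 35 genes with several probe sets, 17 had all of them above 0, 3 all below and 15 on both sides. Among the 14 genes with at least 2 bright probe sets, 10 had all bright ones above 0, and COL11A1, COL22A1, COL4A6 and COL5A2 had them on both sides. Averaging the probe sets of a gene gave 0.15 for COL9A2, 0.24 for COL7A1, 0.31 for COL6A2, 0.16 for COL13A1, 0.10 for COL6A1 and -0.04 for COL22A1, all nearer 0 than the probe set that stood for the gene. It gave 0.41 for COL27A1, and 0.40 for COL2A1 and 0.32 for COL1A1, both farther from 0. Over all 112 probe sets, 83 lay above 0, where 53.8% of all probe sets did, and 0 passed the adjusted threshold in limma, where 0.00183% of all did. At an unadjusted p under 0.05, 12 were higher and 2 lower in knockdown, against 4.13% and 2.48% of all probe sets. Probe sets of 1 gene are counted separately here though they read the same gene, and COL27A1 alone gave 3 of the 12. Knockdown lay wholly above control for 16 collagen probe sets and wholly below for 2, against 7.28% and 5.15% of all probe sets. Of the 53 bright collagen probe sets, 44 lay above 0, against 55.4% of all bright probe sets. The 2 lower ones were dim probe sets of COL1A2 (-0.37) and COL20A1 (-0.29). Of the 12 higher ones, 2 were dim by the probe set cut-off, those of COL1A1 (0.70) and COL11A2 (0.53). All 4 dim probe sets are named after their values had been seen. Names ending in _x_at, which can also bind other transcripts, were borne by 6 of the 112, and 37 ended in _s_at, whose probes may bind several transcripts of a family.

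Summed markers of other cell types were set beside the collagens, and none of the lists had a member listed at 0. The summed chondrocyte list ran from 5627 to 6017 in knockdown and from 4965 to 5413 in control, without overlap, but it holds COL2A1 and COL9A1. Without them the sums ran from 961 to 1174 in knockdown and from 1089 to 1246 in control, and overlapped. The endothelial list, of 7 genes with no collagen, ran from 4004 to 4554 in knockdown and from 3526 to 3782 in control, without overlap, and 0 of its 7 genes passed the adjusted threshold. Of the 7, 3 were bright, 4 lay above 0 and 3 below. By value, after these had been seen, ESAM (dim) differed by 0.80 (limma adjusted p = 0.558) and VWF by 0.42 (limma adjusted p = 0.648), both without overlap, PECAM1 by 0.34 and KDR by 0.18. TEK, CDH5 and TIE1 differed by -0.06, -0.05 and -0.01. The part of this list in the collagen values was not tested. Without its collagens, the fibroblast list ran from 3040.1 to 3663 in knockdown and from 3104 to 3517 in control, with overlap. In the whole fibroblast list 6 of 12 genes lay above 0, and PDGFRA, named after its value had been seen, had the lowest difference, -0.66 (unadjusted p = 0.00195, limma adjusted p = 0.494), without overlap. The sums of the endoderm list, 235 to 384 in knockdown and 295 to 404 in control, and of the neural list, 27901 to 31800 in knockdown and 26908 to 29846 in control, overlapped too.

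The proteins that make, export, cut, bind and degrade collagen, and inhibitors of its degradation, were followed as 81 genes, of which 79 were measured. None passed the adjusted threshold (0 of 79 in limma), 42 lay above 0, and the median was 0.02. At an unadjusted p under 0.05, 2 were higher (MIA3 and DDR2) and 3 lower (SEC13, ITGA1 and LAIR1, the last at -0.44 and named after its value had been seen). Against 3.63% and 3.03% of all genes, these counts lie near the background. Of 18 folding and modification genes 10 lay above 0. FKBP10, a chaperone of procollagen, differed by 0.26 (limma adjusted p = 0.775) and P3H3, of the prolyl hydroxylases, by 0.26 (limma adjusted p = 0.786).

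Of 10 export genes, 7 lay above 0. MIA3, also called TANGO1, which loads procollagen into carriers at the exit sites of the endoplasmic reticulum, read 814, 756 and 735 in knockdown and 615, 589 and 629 in control, without overlap. Its difference was 0.31 (SE 0.09, unadjusted p = 0.0118, limma adjusted p = 0.64). The other MIA3 probe sets differed by 0.07, -0.01 and -0.14. SEC13, a coat protein of those carriers, read 5426, 4881 and 4737 in knockdown and 6050.4, 6162 and 6081 in control, without overlap, with a difference of -0.28 (SE 0.09, limma adjusted p = 0.705).

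Of 14 processing and crosslinking genes, 9 lay above 0. BMP1, a procollagen peptidase, differed by 0.31 (limma adjusted p = 0.815) and ADAMTS14, another procollagen peptidase, by -0.27 (limma adjusted p = 0.831), both with overlap. BMP1 differed by 0.11 without control replicate 3, and ADAMTS14 by -0.05 without knockdown replicate 2. The other, dimmer BMP1 probe sets ran from -0.45 to 0.35. Of 9 measured receptors, 6 lay above 0. ITGA1, an integrin chain that binds collagen, differed by -0.33 (limma adjusted p = 0.723), while DDR2, a receptor kinase for fibrillar collagen, differed by 0.32 (limma adjusted p = 0.728). The other ITGA1 probe sets differed by -0.14 and 0.05, and the other DDR2 probe sets by 0.20, 0.08 and 0.30. Collagen-binding matrix proteins lay above 0 in 7 of 16, while LUM, a fibril-binding proteoglycan, was at -0.32 (limma adjusted p = 0.748) and NID2, a basement membrane linker, at -0.22 (limma adjusted p = 0.753). The second LUM probe set differed by -0.11. The degradation list lay above 0 in 3 of 12 genes, with a median of -0.08, where 50.8% of all genes lay above 0. It mixes degrading enzymes with the inhibitors TIMP1, TIMP2 and TIMP3, all below 0, and 7 of the 12 were bright. The count thus does not describe the enzymes alone. TIMP3, an inhibitor of matrix proteases, differed by -0.40 (limma adjusted p = 0.759) and MMP8, a collagenase, by -0.25 (limma adjusted p = 0.847), and both overlapped between groups. Without control replicate 3 TIMP3 differed by -0.52, and leaving out each array in turn gave -0.52 to -0.22. The other TIMP3 probe sets differed by -0.03, 0.10 and -0.53. MMP8 read 36.3 on control replicate 1 and at most 4.27 on the other arrays, and without that array it differed by -0.02, while its second probe set differed by 0.16.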

How the data were processed

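Total RNA from 6 samples was hybridised to a one-colour array with 54675 probe sets. Per the values the authors deposited, the table held linear intensity, scaled so that the mean after trimming 2% at each end was about 500.07 on every array. RMA, with no version, is the tool in the submitters' processing notes, but RMA gives log2 values, and the background correction is not given in the sources used here. Platform annotation named 1 gene for 41091 probe sets, several for 1801 and none for 11721, with 62 array controls. Of the 41091, 41037 matched GRCh38.p14 by gene identifier, used for names only.

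The members and lists were chosen with earlier results of these data known. Intensities were put on a log2 scale after adding 50. The probe set of highest mean among those naming 1 gene stood for the gene, with no filter on dim genes. Groups were compared in limma 3.58.1 (R 4.3.3, lmFit and eBayes) with Benjamini-Hochberg adjustment over 19775 genes or 54613 probe sets, and calls were made at an adjusted p of 0.05. Code was tested on simulated data. With 3 against 3 arrays the smallest two-sided p of an exact permutation test is 0.1, so calls rest on limma. The text names VAMP7, every COL27A1 probe set, all bright collagen genes, the 2 genes of smallest unadjusted p in each class and pathway list, and genes with several bright probe sets. The number of arrays limits the precision, and the highest correlation between 2 arrays was 0.9887. Alternatives covered the offset, dim-gene filter, scaling, eBayes trend, replicate block, averaging the probe sets of a gene and leaving out each array. Replicate numbers came from the titles, since every knockdown sample's description says 1.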

Additional observations from a re-analysis of the deposited data

How the results depend on the processing

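Under 14 alternatives, 0 of the 57 collagen and pathway genes and probe sets followed passed the adjusted threshold, 42 kept their sign and 15 turned in at least 1. VAMP7 stayed between -3.96 and -3.42. With dim genes left out, 17 collagen genes lay above 0, since only the bright ones then enter. With the probe sets of a gene averaged, 12 collagens had knockdown arrays wholly above control, against 7.01% of all genes. Leaving out each array gave 9 to 13 such collagens, against 11.1% to 12.7% of all genes, since fewer arrays overlap less often, and 0 to 3 wholly below, against 10.8% to 12.4%. It gave 0 to 1 collagens lower at an unadjusted p under 0.05, against 2.7% to 3.19% of all genes, and a median of the bright collagens from 0.081 (without knockdown replicate 1) to 0.23. When the probe sets of each gene were averaged, COL11A1 differed by -0.050, MIA3 by 0.06 and BMP1 by 0.01. Quantile normalization and median centring gave -0.012 and -0.015 for 221730_at of COL5A2, and -0.023 and -0.037 for 217312_s_at of COL7A1. Leaving out each array turned the sign for COL4A5 (-0.047 to 0.30), COL9A3 (-0.094 to 0.044), COL5A1 (-0.00044 to 0.18), COL11A1 (-0.056 to 0.17), COL18A1 (-0.022 to 0.15) and COL26A1 (-0.045 to 0.19). It did so as well for the probe sets 204320_at of COL11A1 (-0.018 to 0.14), 211809_x_at (-0.0091 to 0.26) and 208535_x_at (-0.092 to 0.20) of COL13A1, 209081_s_at of COL18A1 (-0.080 to 0.29), 228873_at of COL22A1 (-0.052 to 0.27), 210945_at of COL4A6 (-0.29 to 0.034), 212489_at of COL5A1 (-0.023 to 0.22), 221730_at of COL5A2 (-0.15 to 0.17) and 217312_s_at of COL7A1 (-0.13 to 0.21). The causes were not tested. Median centring moved the median of all genes to -0.039 and that of the collagens to 0.064. The same-numbered replicates did not deviate together (correlations -0.005, 0.013 and -0.014). With the replicate number as a block, 0 collagen genes, 0 collagen probe sets and 0 pathway genes were called, 4 collagens were higher at an unadjusted p under 0.05, against 3.54% of all genes, and the collagen median was 0.11. The standard error of a bright gene was typically 0.11, which limits what could be called.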
